A study of Homo sapiens with 2 samples.

Results

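The phagocyte NADPH oxidase was followed across a leukaemia line and its drug-resistant derivative through 6 genes: CYBB and CYBA, which encode the membrane-bound flavocytochrome, NCF1 and NCF4, which encode cytosolic organisers, and the small GTPase genes RAC1 and RAC2. The members were taken by name, as the rows carrying those symbols in the deposited files, and every such row was used. These were 11 probes for 6 of the 43270 genes and transcripts named on the array, and 4 of the 6 genes had 1 probe each. Expression was measured in HL60, an established human acute myeloid leukaemia line of promyelocytic character given no treatment, and in R-HL60, the cytarabine-resistant line raised from it by growing parental cells continuously in rising amounts of the drug. Both lines were grown in the same serum-supplemented medium and each was represented by 1 one-colour Agilent array. Cytarabine is a deoxycytidine analogue that blocks DNA synthesis. Without replicates none of the differences can be tested or given an SD between cultures, and line and array cannot be told apart. R-HL60 is a single derived line.

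The phagocyte oxidase moves electrons from cytosolic NADPH across a membrane onto oxygen and so makes superoxide, the start of the respiratory burst of neutrophils and monocytes. Its catalytic subunit, the product of CYBB, sits in the membrane with the smaller product of CYBA, and both need each other for stability. In a resting cell the organisers encoded by NCF1 and NCF4 stay in the cytosol; phosphorylation of the NCF1 product and GTP-bound RAC bring them to the membrane, where the active enzyme assembles. In the myeloid lineage the full set of subunits is acquired late in maturation, and HL60 cells are a standard system for following it because they can be driven towards neutrophils or monocytes. These transcript values say nothing of the protein, of its assembly or of superoxide release.

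The members differed in the size of their difference between the lines. CYBB was 4.79-fold higher on the R-HL60 array, NCF1 was 1.61-fold to 1.69-fold higher on each of its 3 measured probes, and CYBA, NCF4, RAC1 and the brightest probe of RAC2 lay within 1.12-fold. At a threshold of 2-fold, 1 of 6 members was higher and 0 of 6 lower, where 0.786% of the 23531 genes above the floor on at least 1 array reached 2-fold upwards and 0.297% downwards. At 1.5-fold, 2 of 6 members were higher, CYBB and NCF1, and 0 of 6 lower, against 3.53% and 1.38% of all genes. With 6 members these counts are a description. Each array read RNA of a whole culture, so more cells carrying a transcript and more transcript per cell cannot be told apart. Differences are log2 values, R-HL60 minus HL60, after each array was scaled to its own 75th percentile, and the floor is the array's median signal, set in place of a detection call because no detection flags were at hand. A member had to lie above it on both arrays to have a difference, which 10 of the 11 probes did. The error given beside a probe's difference is the probe-to-probe SD. It is the spread of probes around the mean of their own gene's measured probes, pooled over probes at the same brightness. It covers neither separate cultures nor separate arrays.

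Promoters of CYBB, NCF1 and CYBA are shown because the RefSeq table held only these 3 of the 6 members. CYBB and NCF1 carried the larger differences and CYBA, the partner subunit of CYBB, did not. Whether any sequence in these promoters goes with the differences was not tested. The runs are the 250 bases before the annotated transcription start, 5′ to 3′ on the gene's strand, in build GRCh38.p14: chrX:37779809-37780058 (+ strand) for CYBB, chr7:74773761-74774010 (+ strand) for NCF1 and chr16:88651054-88651303 (- strand) for CYBA. Capitals mark GAGGAA or its complement TTCCTC in CYBB and NCF1, and GGGCGG or its complement CCGCCC in CYBA.

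CYBB: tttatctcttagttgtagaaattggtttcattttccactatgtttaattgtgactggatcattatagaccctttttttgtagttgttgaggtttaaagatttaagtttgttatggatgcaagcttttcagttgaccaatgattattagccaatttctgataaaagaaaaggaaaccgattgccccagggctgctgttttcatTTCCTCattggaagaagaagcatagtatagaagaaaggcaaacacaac

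NCF1: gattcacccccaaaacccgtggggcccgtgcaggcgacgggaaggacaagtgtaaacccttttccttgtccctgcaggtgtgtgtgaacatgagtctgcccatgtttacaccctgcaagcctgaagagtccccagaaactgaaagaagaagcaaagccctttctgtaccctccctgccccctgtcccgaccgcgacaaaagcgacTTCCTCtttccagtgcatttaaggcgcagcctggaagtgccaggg

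CYBA: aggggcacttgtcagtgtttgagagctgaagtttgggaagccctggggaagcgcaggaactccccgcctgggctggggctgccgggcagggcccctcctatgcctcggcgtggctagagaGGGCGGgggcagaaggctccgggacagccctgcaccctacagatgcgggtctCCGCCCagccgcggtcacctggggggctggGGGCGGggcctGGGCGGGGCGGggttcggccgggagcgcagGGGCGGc

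GAGGAA is the core bound by PU.1, the myeloid ETS factor encoded by SPI1, and GGGCGG is the GC box bound by SP1. A set of 5 motifs was searched on both strands. GAGGAA occurred once in CYBB, its 5′ end 48 bases before the start, and once in NCF1, 45 bases before the start, both as TTCCTC, and not in this window of CYBA. It was found in 23.6% of 35116 promoter windows of the same length. GGGCGG was found in 42.6% of windows; CYBA held 6 matches, a pair of which share a base, and the windows of CYBB and NCF1 held none. The CCAAT box, in 32.0% of windows, matched 4 times in CYBB, once immediately after its TTCCTC, and not in NCF1 or CYBA. GAAANNGAA, the core of the interferon-stimulated response element and found in 6.88% of windows, matched 2 times in CYBB and once in NCF1, 86 and 224 bases before the start in CYBB and 116 bases in NCF1. TATAAA, the TATA box, was in none of the 3 and in 10.7% of all windows. The GC content was 34.0% for CYBB, 56.4% for NCF1 and 73.6% for CYBA, beside a median of 58.0% over all windows. A match is a run of letters and shows no binding.

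Of the flavocytochrome genes, CYBB encodes the catalytic subunit, which carries the haems and the flavin. Its single probe read an intensity of 86.0 on the HL60 array and 415 on the R-HL60 array, or 2.80 and 12.6 times the array's floor. The probe was therefore dim but measured in the parent, and well clear of the floor in the resistant line. The log2 difference was 2.26, with a probe-to-probe SD of 0.22 at that brightness. Of 1399 other probes of like brightness, 4 had a difference at least as high, and CYBB stood at place 20 of the 21838 genes measured on both arrays. The authors' deposited table of normalized intensities gave 87.4 and 416, a difference of 2.25. Adding an offset of 50 units, which shrinks folds resting on dim signals, left 1.77, or 3.40-fold. No second probe for CYBB was on the array, so agreement between probes could not be examined for the member with the largest difference.

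CYBA encodes the small subunit that anchors the organiser proteins and stabilises the product of CYBB. Its probe read 8219 on the HL60 array and 9242 on the R-HL60 array, far above both floors. The log2 difference was 0.16 with a probe-to-probe SD of 0.13, or 1.12-fold. Of 1399 probes of like brightness 5.36% differed upwards by at least as much, so CYBA was within the central 95% of its peers, which ran from -0.38 to 0.29. The difference of CYBB exceeded that of CYBA by 2.10 on the log2 scale. The 2 genes of the heterodimer thus differed between these arrays by unequal factors.

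**Figure D1:**
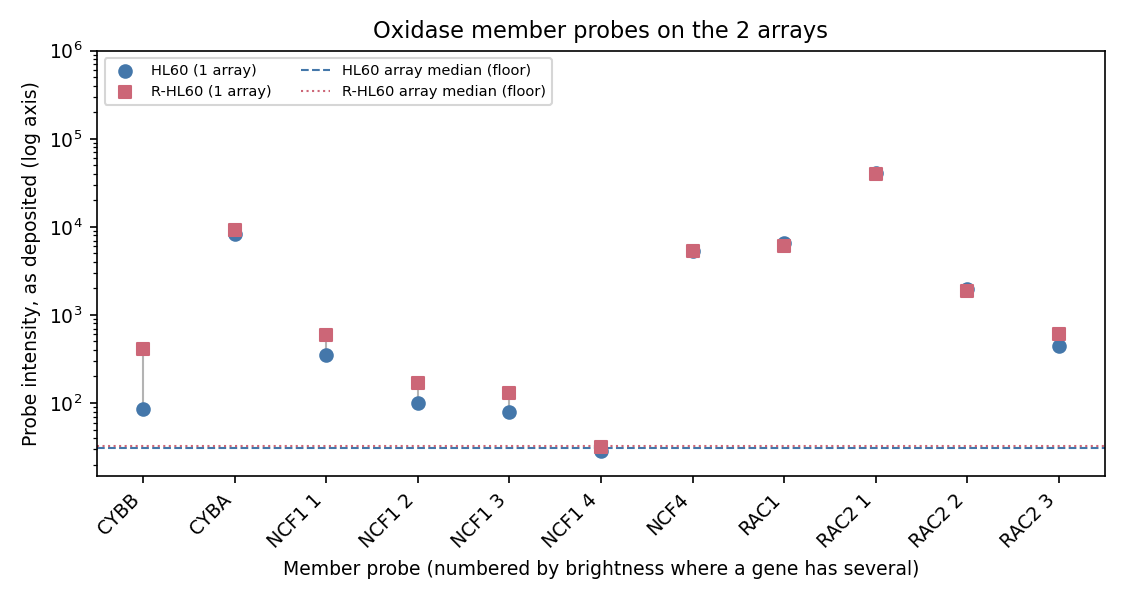
Intensity as deposited (log axis) of each of the 11 member probes on the HL60 array (circles) and the R-HL60 array (squares), with each array's median drawn as a dashed or dotted line. The pair of symbols is widest apart for CYBB (86.0 and 415); those of NCF1 probes 1 to 3 are apart in the same direction, both symbols of the fourth NCF1 probe lie under the line of their own array, and those of CYBA, NCF4 and RAC1 nearly coincide.

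Among the cytosolic organisers, NCF1 encodes the subunit whose phosphorylation starts assembly. Its brightest probe read 350 on the HL60 array and 588 on the R-HL60 array. The next read 100.2 and 171, and the one after it 79.0 and 128. All 3 were higher in R-HL60, by log2 differences of 0.74, 0.76 and 0.69, with probe-to-probe SDs of 0.16, 0.22 and 0.26 at their brightness. They spanned 0.07, less than any of these SDs. The mean was 0.73 ± 0.04 (SD over 3 probes of 1 pair of arrays, which are not replicates). Among probes of like brightness, 1.00%, 2.14% and 3.29% differed upwards by at least as much. The fourth probe, at 28.2 and 31.7, was under the floor on both arrays and has no difference. By its brightest probe NCF1 stood at place 372 of 21838 genes. NCF1 has near-identical copies, the pseudogenes NCF1B and NCF1C, and the files give no probe sequences, so which copy each probe read is uncertain. The row named NCF1B went from 30.6, just under the floor, to 45.5, at least 1.47-fold higher, and NCF1C had no row.

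NCF4 encodes the organiser that binds phosphoinositide on the phagosome. Its probe read 5259 on the HL60 array and 5350 on the R-HL60 array, a log2 difference of 0.02 with a probe-to-probe SD of 0.13. The values were equal within that SD, and the sign was not stable, since centring each array on its median gave -0.07 and quantile normalization 0.08. NCF1 exceeded NCF4 by 0.73 on the log2 scale, so the 2 organiser genes among the members differed in their shift beyond the probe-to-probe SD of either.

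**Figure D2:**
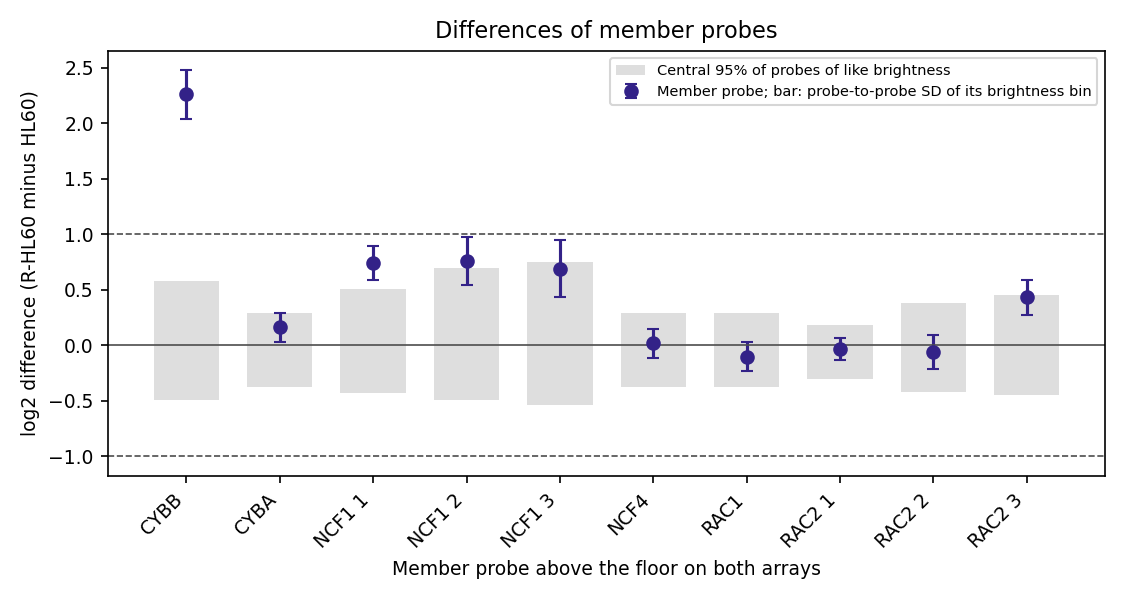
The log2 difference (R-HL60 minus HL60) of the 10 member probes above the floor on both arrays, with the probe-to-probe SD of the same brightness as error bar and the central 95% of probes of that brightness as a grey bar; dashed lines mark 2-fold. CYBB at 2.26 and NCF1 probes 1 and 2 at 0.74 and 0.76 lie above their grey bars, NCF1 probe 3 at 0.69 and RAC2 probe 3 at 0.43 lie inside near the top, and the others lie near 0.

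The GTPase members were nearly equal on both arrays apart from 1 probe. RAC1, the widely expressed RAC gene, read 6555 on the HL60 array and 6140 on the R-HL60 array, a log2 difference of -0.10 with a probe-to-probe SD of 0.13. RAC2, the form restricted to blood cells and the main partner of the oxidase in neutrophils, had 3 probes. Its brightest probe read 40511 and 39883, a difference of -0.03. The sign turned under loess (0.03) and under quantile normalization (0.04), which the authors' deposited table nearly repeats (0.04). RAC2's second probe read 1958 and 1889, a difference of -0.06. Its dimmest read 441 and 600, a difference of 0.43 with a probe-to-probe SD of 0.16, where 2.86% of probes of like brightness differed upwards by at least as much. The 3 probes of RAC2 therefore disagreed, spanning 0.50, and their mean was 0.11 ± 0.28 (SD over 3 probes). The 2 brighter probes gave differences near 0. The files do not say which part of the transcript each probe reads.

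Partners and relatives of the oxidase outside the members were mostly dim or nearly equal. CYBC1, a chaperone needed for the flavocytochrome, was at 0.11 on its brightest probe, from 2581 to 2795. Among 10 genes of other NOX enzymes and their partners, 6 were under the floor on both arrays. DUOXA1 at 0.18 and DUOX2 at -0.22 were measured on both, and neither was past 2-fold. NOX1 was above the floor in R-HL60 only, at least 1.64-fold higher on 1 of 3 probes, with its other probes under the floor on both arrays. NOX1 and CLEC7A, named further on, were chosen after their values were seen.

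Most genes that act on RAC and on assembly of the oxidase were close to equal in both lines. Counts past 2-fold take a gene above the floor on 1 array by its bound, so a bound under 2-fold is not counted although the difference may be larger. Of 16 small GTPases related to RAC, 13 were above the floor on both arrays, 0 were past 2-fold and the median difference was -0.01, with RHOU, an atypical member of the family, at 0.44 and RAC3, a close relative of RAC1, at -0.32. Of 24 RAC exchange factors, GTPase-activating proteins and dissociation inhibitors, 20 were above the floor on both arrays, 0 were past 2-fold and the median was -0.01, from VAV2 at -0.27 to ARHGDIB at 0.30. ARHGDIB encodes the dissociation inhibitor of blood cells that holds RAC in the cytosol. Of 32 kinases and lipid enzymes, 30 were above the floor on both arrays and 0 were past 2-fold, again with a median of -0.01. The lowest was PIK3CB, a phosphoinositide kinase, at -0.39 (log2 difference). At 1.5-fold, 2 genes of this list were higher and 0 lower, against 3.53% and 1.38% of all genes. Over all 21838 genes measured on both arrays the median was -0.03, so these lists sat at the level of the array as a whole, within 0.03.

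Receptors that trigger the burst had a median above 0, and 0 of those measured on both arrays reached 2-fold. Of 28 on the list, 22 were above the floor on both arrays, 16 of them with a difference above 0 where 42.8% of all such genes were above 0, and the median was 0.12. ITGB2, the beta chain shared by the leukocyte integrins, was highest, from 9399 to 15723, a difference of 0.73 on its brighter probe and 0.62 on the other. CSF2RA, the alpha chain of the GM-CSF receptor, was lowest at -0.83, from 64.0 to 36.3, close to the floor in R-HL60. With the offset of 50 units CSF2RA was at -0.41. CLEC7A, the beta-glucan receptor, was above the floor in R-HL60 only, on 1 of its 2 probes, with the other under the floor on both arrays. It was at least 1.90-fold higher, a bound that allows a difference past 2-fold. With the offset of 50 units it was at 0.51. With the floor at the 40th percentile or with none it was counted as measured on both arrays, at 1.18 on the log2 scale (25.9 to 58.7).

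Transcription factors known from the promoters of oxidase genes had a median of -0.08 over 24 of 28 genes above the floor on both arrays, with 0 past 2-fold. IRF2, an interferon regulatory factor, was highest at 0.62 (60.6 to 93.4) and GATA2, a factor of progenitors, lowest at -0.82 (415 to 236). Named after their values were seen, SPI1, which encodes PU.1, was nearly equal at 0.08 (9865 to 10470), IRF8, a partner of PU.1, was at -0.61 (72.1 to 47.6), NFKB1 was at 0.48 (2733 to 3836) and CEBPA, the granulocytic factor, at -0.46 (30891 to 22616). The part of any of these factors in the differences of CYBB and NCF1 was not tested.

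Supply and disposal genes of the oxidase that were measured on both arrays stayed within 2-fold. All 12 genes of NADPH supply and of proton and chloride movement were above the floor on both arrays, with a median of -0.07, the highest being ME1, malic enzyme, at 0.15. Of 20 genes that dispose of superoxide and peroxide or use them, 18 were above the floor on both, with a median of 0.02, from PRDX4, a peroxiredoxin, at -0.28 to HMOX1, haem oxygenase, at 0.19.

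Later maturation genes of neutrophils and monocytes held the other differences counted as past 2-fold. Of 22 on the list, 16 were above the floor on both arrays, 2 were at least 2-fold higher, 0 were 2-fold lower and the median was 0.19. MMP9, the gelatinase of neutrophil granules, went from 657 to 2159 (3.27-fold). S100A9, a calcium-binding protein of neutrophils and monocytes, went from 685 to 1849 (2.68-fold), while CAMP, a cathelicidin of specific granules, was lowest at -0.53. Of the 16, 11 had a difference above 0 and 5 below. Named after their values were seen, S100A8 was at 0.79 (2152 to 3743), CSF1R at -0.35 and CD14 at -0.19. MMP8, LTF, LCN2, OLFM4 and CEACAM8 were under the floor on both arrays. Over all 10 lists together, 2 of 169 genes above the floor on at least 1 array were at least 2-fold higher (1.18%) and 0 lower, near the 0.786% of all genes. At 1.5-fold, 11 were higher (6.51%) and 3 lower (1.78%), against 3.53% and 1.38%. No list's count was tested.

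**Figure D3:**
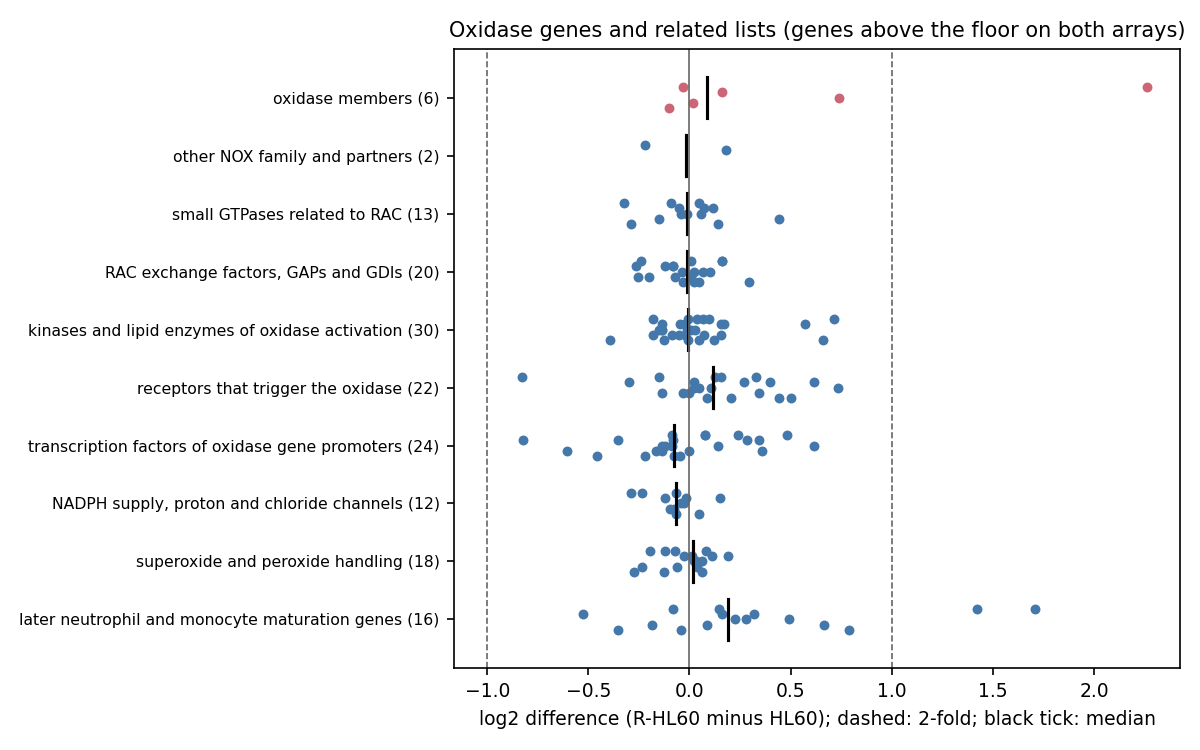
Each point is a gene above the floor on both arrays, placed by its log2 difference (R-HL60 minus HL60) and its list, with the number of such genes in parentheses, a black tick at each median and dashed lines at 2-fold. CYBB at 2.26, MMP9 at 1.71 and S100A9 at 1.42 are the genes past the 2-fold lines; the medians of the 9 related lists drawn lie between -0.08 and 0.19. A further list, of which 2 genes were measured on both arrays, is not drawn, and its median was above that range.

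The lines were checked against markers of cell type. All 7 promyelocytic markers, namely MPO, ELANE, PRTN3, AZU1, CTSG, CD33 and ANPEP, were above the floor on both arrays, with a median difference of -0.18 and a summed intensity of 721546 in HL60 and 640523 in R-HL60. ELANE, neutrophil elastase of early granules, was 4.59-fold lower in R-HL60 (700 to 153) and PRTN3 was at -0.80. MPO, AZU1, CTSG and CD33 were at -0.12, -0.15, -0.19 and -0.18, and ANPEP was above 0, at 0.32. Of 6 T and NK cell markers 5 were above the floor (sum 6709 and 9562), as were 4 of 5 B cell markers (2956 and 3372), 3 of 4 erythroid and megakaryocyte markers with a row (1038 and 1085), 3 of 5 epithelial markers (1670 and 1874) and 1 of 5 fibroblast markers on both arrays (106 and 123). CD3G, PAX5, PF4, EPCAM, CDH1 and the collagen genes COL1A1, COL1A2 and COL3A1 were under the floor on both arrays. No marker of these other cell types was counted as past 2-fold. Their part in the member differences was not tested.

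The nearest measured genes in chromosome order had smaller differences than CYBB and NCF1, apart from ZFPM1 near CYBA. For each member, the 3 nearest genes on either side that were above the floor on both arrays were taken, in the order of the RefSeq gene table. Genes without a difference were passed over and no limit of distance was set, so a neighbour need not be close in bases. The 6 neighbours of CYBB ran from 0.03 for RPGR to 0.17 for MID1IP1, against 2.26 for CYBB itself. Those of NCF1 ran from -0.41 for GTF2IRD2 to 0.19 for PMS2P5. The neighbours of CYBA had a median of -0.30, with ZFPM1 lowest at -0.75, while CYBA was at 0.16. NCF4 and RAC2 lie near each other, so MPST, at -0.02, counted as a neighbour of both, and the neighbours of NCF4, RAC1 and RAC2 had medians of -0.08, -0.07 and -0.14. No neighbour of any member was past 2-fold.

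**Figure D4:**
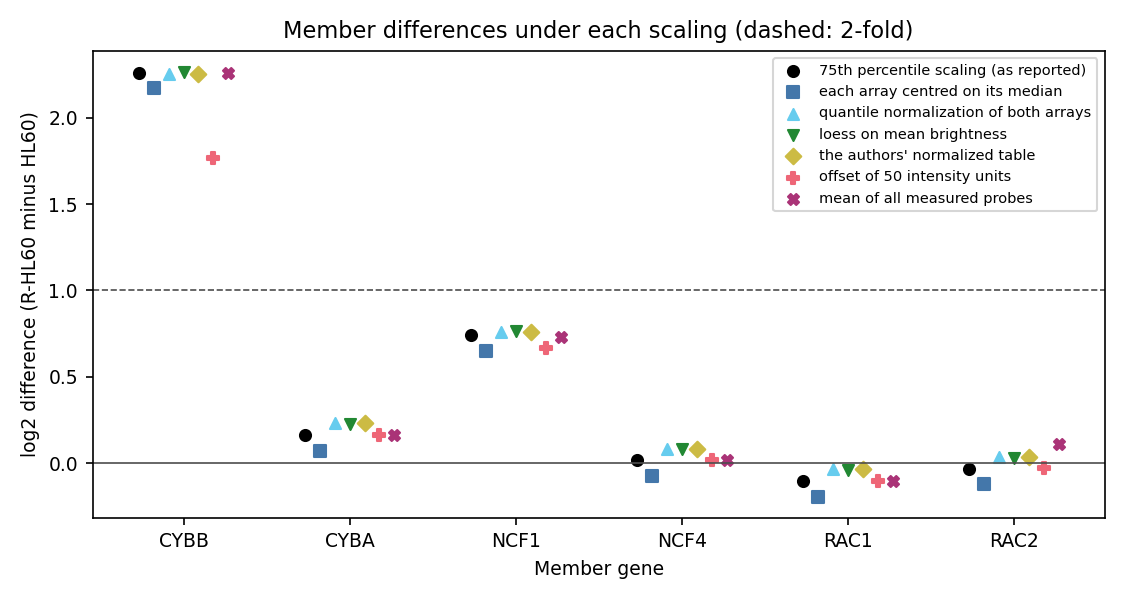
The log2 difference (R-HL60 minus HL60) of each member gene under the scaling used here and under 6 alternatives, with a dashed line at 2-fold. CYBB stays above the line in all of them, between 1.77 and 2.26, NCF1 lies between 0.65 and 0.77, and NCF4 and RAC2 have values on both sides of 0. The authors' table nearly repeats quantile normalization, so they are not separate alternatives.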

How the data were processed

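Deposited files were used as they stand, 1 array per line. Per the labels, total RNA was labelled with Cy3 and hybridised in a one-colour format, and the submitters' processing notes name Agilent Feature Extraction 10.7.3.1. The authors deposited a linear intensity per probe for each array, without probe identifiers, background values or flags; the scanner column, background treatment and genome build are not given in the sources used here. Intensities normalized by the authors served as an alternative. At every rank they were within 1.06% of the average of the arrays, so they nearly repeat quantile normalization.

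Here, intensities were log2-transformed and centred on the 75th percentile of their array (292 for HL60, 294 for R-HL60). The floor was the array's median (30.7 and 32.8) of 58201 probes. A gene was represented by its brightest probe; every member probe is given. Genes above the floor on 1 array have a bound, written "at least". Of 43317 names, 21081 were current symbols and 1567 older symbols of 1 gene, which were updated. Probe-to-probe SDs came from 4723 genes with several measured probes, in 20 bins of brightness. The number of arrays limits precision, and no test was run. Called genes were those at least 2-fold different. Members, lists, motifs and tests were chosen with earlier results of these data known. Named list genes were those past 2-fold, or else the highest and lowest; some are not reported here. Steps were tested on simulated data, with changes set only in brighter probes of genes with 1 probe. Recovery of changes in dim probes was not covered. Alternatives were 5 other scalings or offsets, 3 floors, the mean of probes and thresholds of 1.5-fold and 3-fold. Python 3.11.15, numpy 2.4.6, pandas 2.3.3, scipy 1.17.1, statsmodels 0.14.6 and matplotlib 3.10.9 were used.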

Additional observations from a re-analysis of the deposited data

How the results depend on the processing

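No paired analysis was possible because each line had 1 array. Of the values for members and for the lists as a whole under the alternatives, 107 stayed within the probe-to-probe SD or within 1.5 times a count, and 9 moved. Part of the 107 could not have moved. No floor tried changed a member's difference, and the mean of probes is the same value for the 4 members with 1 probe. The authors' table nearly repeats quantile normalization. CYBB was 1.77 with the offset of 50 units, and RAC2 was 0.11 as the mean of its measured probes. At a threshold of 1.5-fold 2 members were higher, with 11 list genes higher and 3 lower; at 3-fold 1 list gene was higher. List genes at least 2-fold lower numbered 2 with the floor at the 40th percentile and 3 with no floor, where 4 were higher. With either floor PLD2 was at -1.03 and CLEC7A at 1.18, and neither is counted with the array median as the floor. No called value changed sign. Differences of dim probes, CYBB and 2 of the measured NCF1 probes among them, shrink with the offset, to 0.55 and 0.46 for those NCF1 probes.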
